A study of Mus musculus with 8 samples.

Results

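The 10 genes described here are Hif1a, Vegfa, Adm, Bnip3, Egln1, Egln3, Ndrg1, Pdk1, Slc2a1 and Ankrd37, mouse genes chosen by symbol for their place in the response to low oxygen. All 10 were found by symbol among the 55414 genes of the count table, each under 1 Ensembl identifier, and all 10 passed the expression filter that left 15150 genes. The RNA came from cardiac fibroblasts, the matrix-building stromal cells of the heart, cultured from C57BL/6J mice and used at passage 2. Cultures given an adenovirus carrying Has2, the gene for hyaluronan synthase 2, were compared with cultures given an adenovirus carrying green fluorescent protein (GFP), with 4 libraries each. In either group replicates 3 and 4 are male and replicates 1 and 2 are female. All 8 cultures had been without serum for 24 h, met their virus for 5 h and were then cultured for 48 h with the growth factors bFGF and TGF-beta (20 ng/mL). The genotype is labelled wild type, although the protocol speaks of Has2 fl/fl animals, and no oxygen level or age is given in the labels used here. Libraries of 1 number share a preparation name across the groups (S643, S648, R76 and R77). The labels do not say whether 1 preparation is 1 animal, so p-values measure the spread between these cultures.

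Cells sense oxygen through prolyl hydroxylases of the EGLN family, which mark the alpha subunit of hypoxia-inducible factor (HIF) for destruction while oxygen is plentiful. When oxygen falls, the alpha subunit, for which Hif1a codes, pairs with ARNT and binds a short motif, the hypoxia response element, near its targets. The targets bring glucose into the cell (Slc2a1), hold pyruvate back from mitochondria (Pdk1), call in blood vessels (Vegfa, Adm), remove mitochondria (Bnip3) and include the hydroxylases themselves (Egln1, Egln3). In fibroblasts the same factor can be raised by growth factors as well as by hypoxia, and its control is largely at the level of protein stability, which RNA does not measure.

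Matches to the core of this motif can be seen before at least 1 annotated start of 9 of these genes. In RefSeq's promoter table (build GRCm38.p6) 9 of the 10 genes had an entry, and all 9 held at least 1 match to the core of the element, ACGTG or GCGTG on either strand, in the 250 bases before an annotated start; overlapping matches were counted once. Counted by entry, 9 of the 11 entries of these genes held such a match, against 38.6% of all 32851 promoters of the table in the same window. ACGTG or its complement was present in at least 1 entry for 7 of the 9 genes. The share of all promoters with it was 16.6%, counted by entry and not by gene. The gene with no entry was Ndrg1. Vegfa and Pdk1 had an entry for each of 2 starts, and 1 of the 2 held a match. For Vegfa, on the minus strand, it was the more downstream start (window chr17:46025164-46025413). The window of the more upstream Vegfa start (chr17:46032378-46032627) held 0 matches. A match describes these letters and is not a measured binding site. The upstream sequences of Hif1a (chr12:73907617-73907866, plus strand), the member whose RNA moved most within pairs, of Bnip3 (chr7:138909507-138909756, minus strand), the member with the most matches, and of Adm (chr7:110627407-110627656, plus strand), which holds GCGTG without ACGTG, are shown 5′ to 3′ with the matches in capitals.
Hif1a: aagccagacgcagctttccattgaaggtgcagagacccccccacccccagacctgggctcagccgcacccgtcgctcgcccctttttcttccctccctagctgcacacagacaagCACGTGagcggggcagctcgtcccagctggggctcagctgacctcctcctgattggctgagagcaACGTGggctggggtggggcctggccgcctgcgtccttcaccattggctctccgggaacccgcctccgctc
Bnip3: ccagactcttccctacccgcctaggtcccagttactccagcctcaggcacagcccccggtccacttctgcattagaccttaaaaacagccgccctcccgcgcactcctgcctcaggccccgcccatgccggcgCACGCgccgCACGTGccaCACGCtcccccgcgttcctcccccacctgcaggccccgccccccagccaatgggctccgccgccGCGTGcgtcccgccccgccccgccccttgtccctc
Adm: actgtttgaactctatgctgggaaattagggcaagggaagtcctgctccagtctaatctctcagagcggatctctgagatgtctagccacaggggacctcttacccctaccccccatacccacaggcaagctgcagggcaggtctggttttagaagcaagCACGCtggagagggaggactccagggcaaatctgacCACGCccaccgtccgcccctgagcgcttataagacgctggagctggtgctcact
The Hif1a window holds 2 separate matches, that of Bnip3 4 and that of Adm 2. Of all promoters, 13.5% held 2 or more and 1.49% held 4 or more.

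Has2 itself ranged from 3209 to 9533 CPM, the count scaled to a common effective library size, with its own virus, against 7.36 to 25.2 CPM with the GFP virus (log2 fold change 8.49, SE 0.57; edgeR adjusted p = 0.0011). Viral and cellular Has2 transcripts cannot be told apart in these counts. Library totals ran from 46981231 to 55795187 counts. All 10 fibroblast markers were expressed, with a summed level of 25783 to 39738 CPM with the Has2 virus and 25525 to 39071 CPM with the GFP virus. The 10 macrophage markers were present too, at 857 to 2317 CPM with the Has2 virus and 902 to 2216 CPM with the GFP virus. The 8 endothelial markers summed to 31.0 to 52.7 CPM with the Has2 virus and 34.4 to 54.4 CPM with the GFP virus, led by Tek at a mean of 15.3 CPM, and 2 of them (Kdr, Vwf) averaged under 1 CPM. Sums were lower for cardiomyocyte markers (4.33 to 8.84 CPM with the Has2 virus and 4.72 to 8.98 CPM with the GFP virus), with 5 of 6 genes under 1 CPM and Tnnt2 at 5.61 CPM. Mural markers summed to 5.83 to 10.6 CPM with the Has2 virus and 5.81 to 9.62 CPM with the GFP virus (3 of 5 under 1 CPM; Cspg4 at 4.89 CPM). Epicardial markers summed to 2.39 to 5.70 CPM with the Has2 virus and 2.06 to 4.75 CPM with the GFP virus (4 of 5 under 1 CPM; Krt19 at 2.03 CPM). No marker gene was at 0 throughout. In bulk RNA, fewer cells of a type and less RNA per cell cannot be told apart.

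Per length, the 10 genes covered a range from Adm to Ankrd37. Over the 8 libraries, CPM per kilobase of the longest annotated transcript averaged 76.3 for Adm, 72.8 for Bnip3, 59.9 for Vegfa, 53.8 for Slc2a1, 44.6 for Egln1 and 41.3 for Hif1a. Lower down stood Pdk1 at 15.8, Egln3 at 8.78, Ndrg1 at 4.86 and Ankrd37 at 4.77. Neighbours in this order overlapped between libraries, with 2 exceptions: Pdk1 (13.5 to 17.2) lay wholly below Hif1a (17.4 to 64.0) and wholly above Egln3 (5.68 to 11.2). Of the HIF hydroxylases, Egln1 was thus the more abundant of the 2 members in each library.

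No member passed the test for an effect of the Has2 virus. Of the 10 genes, 5 had a fold change above 0 and 5 below (7 and 3 with RLE scaling, 2 and 8 with library totals), the median log2 fold change was -0.0048 (-0.0066 over all genes tested), and the individual values lay between -0.12 and 0.10. With edgeR's quasi-likelihood test 0 of 10 were called at an adjusted p under 0.05 and 0 had an unadjusted p under 0.05; the adjusted p was 1.00 for each, and DESeq2 also called 0, with and without the replicate block. The background was 0.0066% of 15150 genes called by edgeR, Has2 alone, 2.56% at an unadjusted p under 0.05, and 0.0463% (0.403% with the block) called by DESeq2. The 95% interval of the fold change lay within 2-fold in either direction for 9 of the 10 genes, and for 11394 of all 15150 genes. The exception in this fit without the replicate block was Ankrd37 (-1.28 to 1.04), whose interval with the block was -0.69 to 0.22. For Hif1a the lower end was -0.996, and with the replicate block its interval reached beyond 2-fold (-1.05 to 0.38). With the replicate number as a block edgeR again called 0 of the 10. No member had groups that did not overlap (background 2.38%), and none was higher in all 4 pairs or lower in all 4 (background 17.1%).

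**Figure D1:**
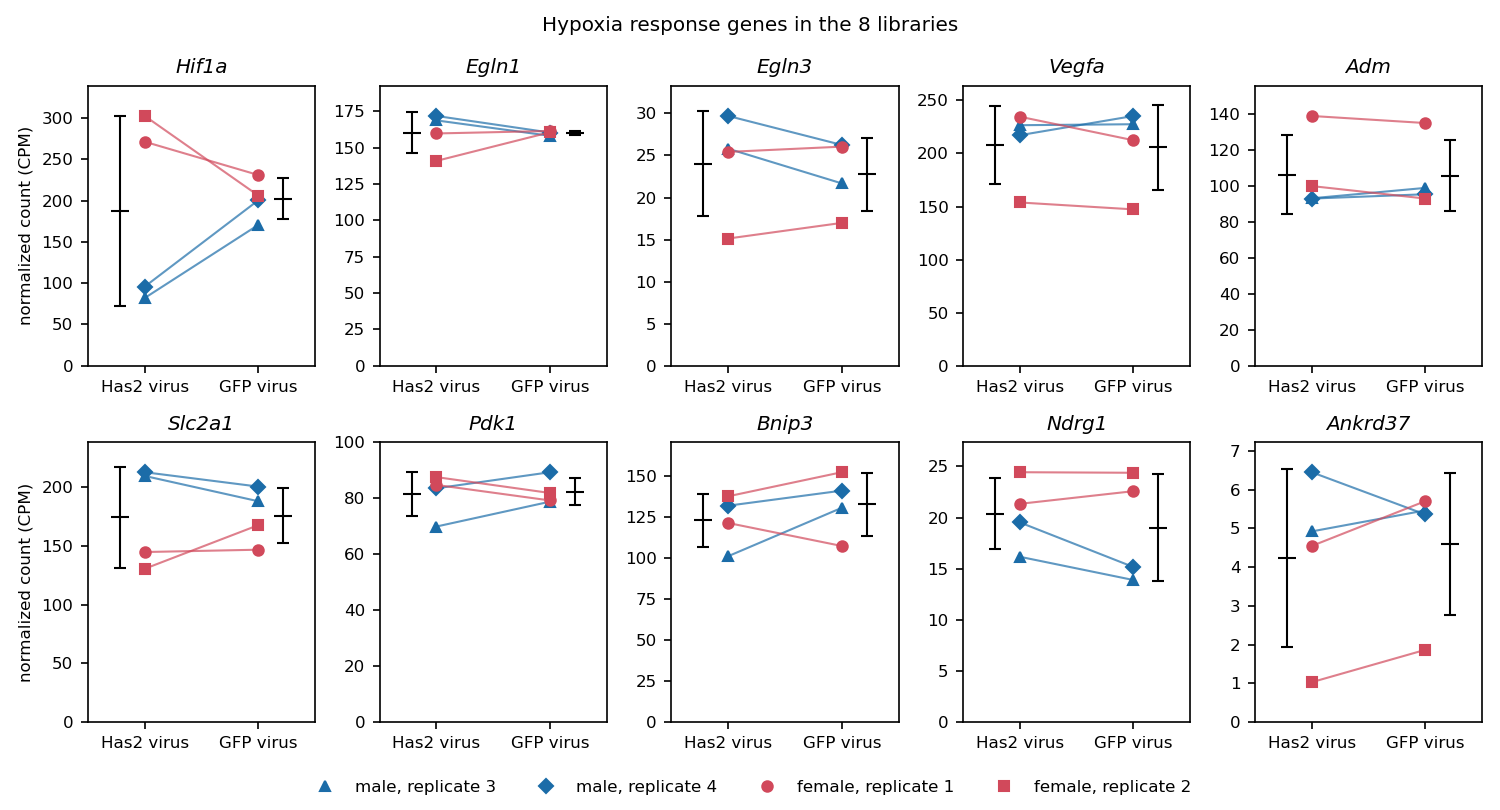
Normalized counts (CPM, y axis from 0) of the 10 genes with the Has2 virus and with the GFP virus; lines join libraries of 1 replicate number, and the black bars give the mean ± SD of the 4 libraries. In Hif1a the male Has2 libraries lie at 82.0 and 95.8 CPM, below the other 6 libraries, and in all 10 genes the 2 groups overlap.

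Among the genes that sense oxygen, Egln1 codes for PHD2, the main hydroxylase acting on HIF in normal oxygen. Egln1 stood at 159.7, 141, 169 and 172 CPM in Has2 replicates 1 to 4, against 161, 161, 158 and 160.3 CPM in GFP replicates 1 to 4. These averaged 160.2 ± 13.9 CPM with the Has2 virus and 160.1 ± 1.42 CPM with the GFP virus (SD, n = 4 each; log2 fold change 0.0013, SE 0.10). It was the steadiest member, with a 95% interval of -0.23 to 0.23.

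Egln3 codes for PHD3, a hydroxylase that HIF itself induces. Egln3 stood at 25.4, 15.1, 25.8 and 29.7 CPM in Has2 replicates 1 to 4, against 26.1, 17.0, 21.7 and 26.3 CPM in GFP replicates 1 to 4. Replicate 2 was the lowest of either group, and the virus difference was small beside that spread (log2 fold change 0.078, SE 0.22).

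Vegfa, the leading growth factor for blood vessels, had a log2 fold change of 0.017 (SE 0.18). Vegfa stood at 235, 154, 227 and 217 CPM in Has2 replicates 1 to 4, against 212, 147, 228 and 235 CPM in GFP replicates 1 to 4. Here too replicate 2 was the lowest in both groups, and the other 3 numbers lay close together. Adm codes for adrenomedullin, a peptide that widens vessels, and had a log2 fold change of 0.0093 (SE 0.18). Adm stood at 139, 100.1, 93.3 and 93.1 CPM in Has2 replicates 1 to 4, against 135, 93.1, 99.0 and 95.5 CPM in GFP replicates 1 to 4. The culture pair of replicate 1 stood above the rest with either virus.

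Slc2a1, the glucose transporter GLUT1, had a log2 fold change of -0.011 (SE 0.19). Slc2a1 stood at 145, 131, 209.8 and 213 CPM in Has2 replicates 1 to 4, against 147, 168, 188 and 201 CPM in GFP replicates 1 to 4. Its 4 male libraries were all higher than its 4 female ones. Pdk1, the kinase that switches off pyruvate dehydrogenase, had a log2 fold change of -0.015 (SE 0.11). Pdk1 stood at 84.8, 87.6, 69.9 and 83.6 CPM in Has2 replicates 1 to 4, against 79.2, 81.9, 78.8 and 89.3 CPM in GFP replicates 1 to 4. Its 8 values stayed within a narrow band.

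Bnip3, a mitochondrial protein that marks mitochondria for removal, had a log2 fold change of -0.11 (SE 0.15), with the smallest unadjusted p of the 10 (0.465, edgeR). Bnip3 stood at 121, 138, 101 and 132 CPM in Has2 replicates 1 to 4, against 107, 152, 131 and 141 CPM in GFP replicates 1 to 4. It was lower with the Has2 virus in 3 of 4 pairs. With the trend of transcript GC content and length removed from each library, its log2 fold change changed sign to 0.22 (SE 0.15), again not called.

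Ndrg1, a stress-induced gene that HIF switches on, had a log2 fold change of 0.10 (SE 0.22). Ndrg1 stood at 21.3, 24.4, 16.2 and 19.5 CPM in Has2 replicates 1 to 4, against 22.6, 24.4, 13.9 and 15.2 CPM in GFP replicates 1 to 4. The female libraries were the higher ones in each group. Ankrd37, a small ankyrin-repeat protein and HIF target, was the least abundant member and had a log2 fold change of -0.12 (SE 0.52). Ankrd37 stood at 4.55, 1.03, 4.92 and 6.45 CPM in Has2 replicates 1 to 4, against 5.70, 1.86, 5.47 and 5.36 CPM in GFP replicates 1 to 4. Replicate 2 was far below the other numbers, with 50 counts with the Has2 virus and 85 with the GFP virus. Ankrd37 overlaps Ufsp2 on the opposite strand, which had 2012 to 3129 counts per library; the strand setting of the counting is not given in the sources used here, so reads of the 2 genes could have been mixed.

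For most of the 10 genes levels differed more between replicate numbers than between viruses within any pair. The means of the 4 pairs spanned 2.09 log2 units for Ankrd37, 0.80 for Egln3, 0.70 for Ndrg1, 0.59 for Vegfa, 0.54 for Adm, 0.50 for Slc2a1 and 0.22 for Pdk1. The largest difference between the viruses within any pair was 0.86, 0.25, 0.37, 0.14, 0.10, 0.36 and 0.17 for the same genes in that order. Hif1a spanned 1.08, about as much as its largest pair difference of 1.06, while for Bnip3 (0.34 against 0.37) and Egln1 (0.14 against 0.19) the pair difference was larger. Each pair mean includes a Has2 library, so the Hif1a span holds the low male Has2 values. With the GFP virus alone Hif1a ranged only from 170.5 to 230.9 CPM. Replicate 2, lowest in Vegfa, Egln3 and Ankrd37, also had the lowest macrophage marker sum, at 857 CPM with the Has2 virus and 902 CPM with the GFP virus, where the other libraries had 1599 to 2317 CPM. By pair mean, replicate 2 was also lowest in Egln1, and it was highest in Bnip3 and Ndrg1. The part of macrophage RNA in these levels was not tested.

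Hif1a was the member in which the pairs disagreed most. In male cultures it stood at 82.0 and 95.8 CPM with the Has2 virus, against 170.5 and 200.3 CPM with the GFP virus. In female cultures it stood at 271 and 302 CPM with the Has2 virus, against 231 and 206 CPM with the GFP virus. The male and the female pairs changed in opposite directions, as they did, one way or the other, in 34.5% of all genes tested. Hif1a with the Has2 virus was 0.48 and 0.48 times its GFP level in the male pairs. In the female pairs it was 1.17 and 1.47 times that level. Pooled over sex these changes partly cancelled, to a log2 fold change of -0.10 (SE 0.40), or -0.33 (SE 0.30) with the replicate block. The SD of the Has2 group was 115 CPM against 24.8 CPM in the GFP group (n = 4 each). When the libraries of each sex were fitted alone, edgeR gave Hif1a a log2 fold change of -1.06 in males (adjusted p = 0.00924; background 9.25% of 15295 genes) and 0.41 in females (adjusted p = 1.00; background 0% of 15312 genes).

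**Figure D2:**
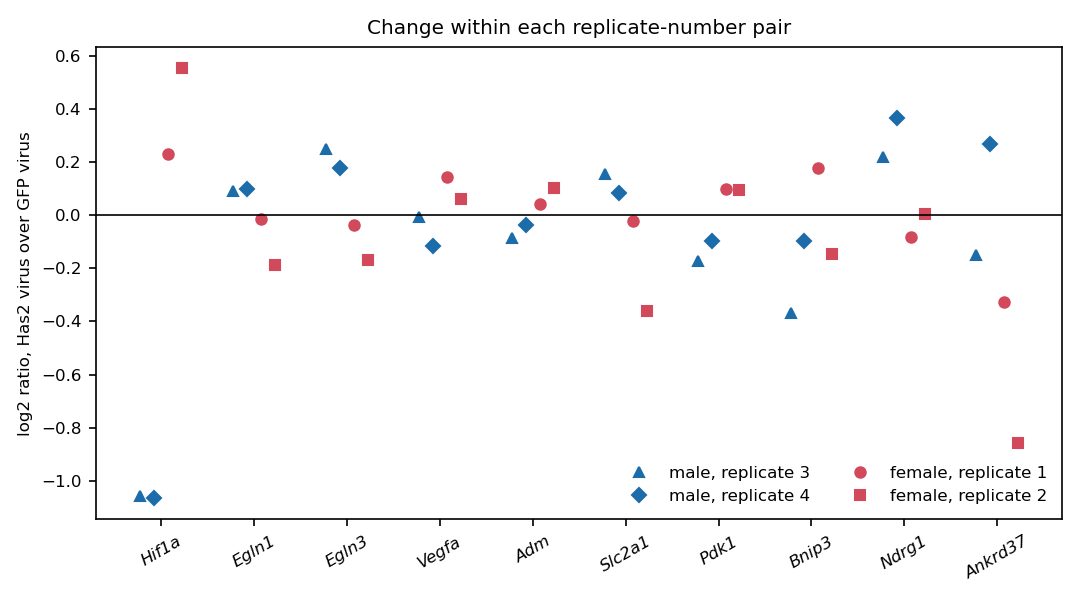
Log2 ratio of the Has2 virus over the GFP virus within each replicate-number pair, without pseudocount, for the 10 genes; blue symbols are male pairs and red symbols female pairs. Both male pairs of Hif1a lie at -1.06 and both female pairs above 0, while 35 of the 36 pair ratios of the other 9 genes lie within 0.4 of 0.

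The difference between the sexes was then tested as a sex by virus interaction. Sex goes with the preparation series (names starting with R are male and with S female), so the 2 cannot be told apart. Without the replicate block Hif1a's virus effect, male minus female, was -1.44 (SE 0.22; edgeR unadjusted p = 0.000256, adjusted p = 0.18), and edgeR called 0 of 15878 genes (2049 at an unadjusted p under 0.05; DESeq2 called 666 genes or 5.2%, and 28.1% with the block, Hif1a each time among them). With the replicate block the difference was -1.44 (SE 0.14; edgeR adjusted p = 7.07e-05), with -1.03 (SE 0.099; adjusted p = 3.58e-05; background 26.8%) in male and 0.41 (SE 0.097; adjusted p = 0.0385; background 6.2%) in female pairs. It was the 1 member of 10 called in that fit, where the background was 28.4% of all genes. Some other members passed under other processing, as given below. When both libraries of 1 replicate number were left out of the blocked fit, each in turn, Hif1a's difference stayed between -1.67 and -1.30. This alternative was chosen after seeing the data and leaves 1 sex with a single pair, so its p-values are not given. With 2 pairs of each sex, the p-values of the full blocked fit rest on variance that edgeR shares across genes. Has2 itself differed in the same blocked fit, by -1.64 (SE 0.39; edgeR adjusted p = 0.00999): with its virus it stood at 3209 and 4860 CPM in male and 9533 and 8406 CPM in female cultures. Without the block Has2's difference was -1.42 (SE 0.69, edgeR adjusted p = 0.438). Its transcript has a GC content of 40.6%. With the trend of GC content and length removed, the blocked fit gave -0.85 (SE 0.38, edgeR adjusted p = 0.202). Whether the Has2 level has a part in the Hif1a difference was not tested.

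Transcript GC content went with the changes in male pairs. Hif1a and Bnip3 have the lowest GC content of the 10 (41.3% and 41.6%), and they had the 2 lowest mean log2 differences in the male pairs, -1.04 and -0.23 with a pseudocount of 2. The 928 genes with a GC content of 40 to 42% had a median of -0.54 in the male and 0.05 in the female pairs. Egln1 and Slc2a1, of the highest GC content among the members (56.01% and 54.02%), were at 0.10 and 0.12 in the male and -0.10 and -0.19 in the female pairs. Across the 10 genes, which are not replicates and share their libraries, Spearman's rho between GC content and the mean log2 ratio was 0.70 in the male and -0.73 in the female pairs. Over all genes tested the same coefficient was 0.66 and 0.64 in male replicates 3 and 4, but only -0.22 and -0.17 in female replicates 1 and 2.

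**Figure D3:**
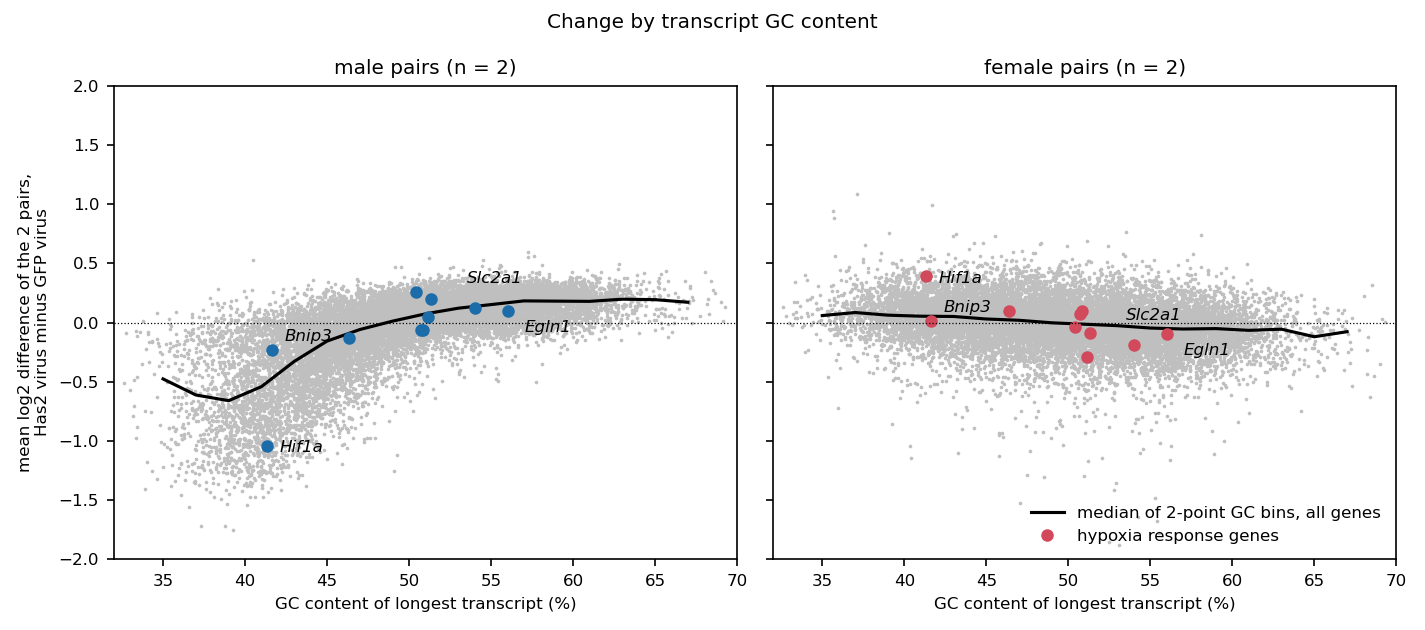
Mean log2 difference (Has2 virus minus GFP virus, pseudocount 2) of the male pairs and of the female pairs against the GC content of the longest transcript, for all genes tested (grey; 21 genes in the male and 23 in the female panel fall outside the axes) and the 10 members (coloured). The black line is the median in bins of 2 percentage points; it falls below -0.5 at low GC in the male panel, where Hif1a lies at -1.04, and stays near 0 in the female panel.

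With the trend of GC content and length removed, Hif1a's difference between the sexes was smaller. In the fit with the replicate block it was -0.67 (SE 0.12; edgeR adjusted p = 0.00725), with -0.39 (SE 0.083; adjusted p = 0.0139) in male and 0.28 (SE 0.082; adjusted p = 0.101) in female pairs. Bnip3 passed in the same male pairs, at 0.35 (SE 0.075; edgeR adjusted p = 0.0137), where 11.9% of all genes passed, while 0 of the 10 passed in the female pairs (background 3.33%). Without the block the Hif1a difference was -0.69 (SE 0.23; edgeR adjusted p = 0.748). Adm was called as well in the blocked fit, at -0.43 (SE 0.10; edgeR adjusted p = 0.0279), where it had been at -0.12 before the correction (adjusted p = 0.495). Vegfa stood at -0.32 (SE 0.10; adjusted p = 0.0755). These 2 calls among 10 members compare with a background of 10.4% of all genes. The corrected value of Bnip3 was 0.25 (SE 0.11), against -0.23 as counted, and was called in neither fit.

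**Figure D4:**
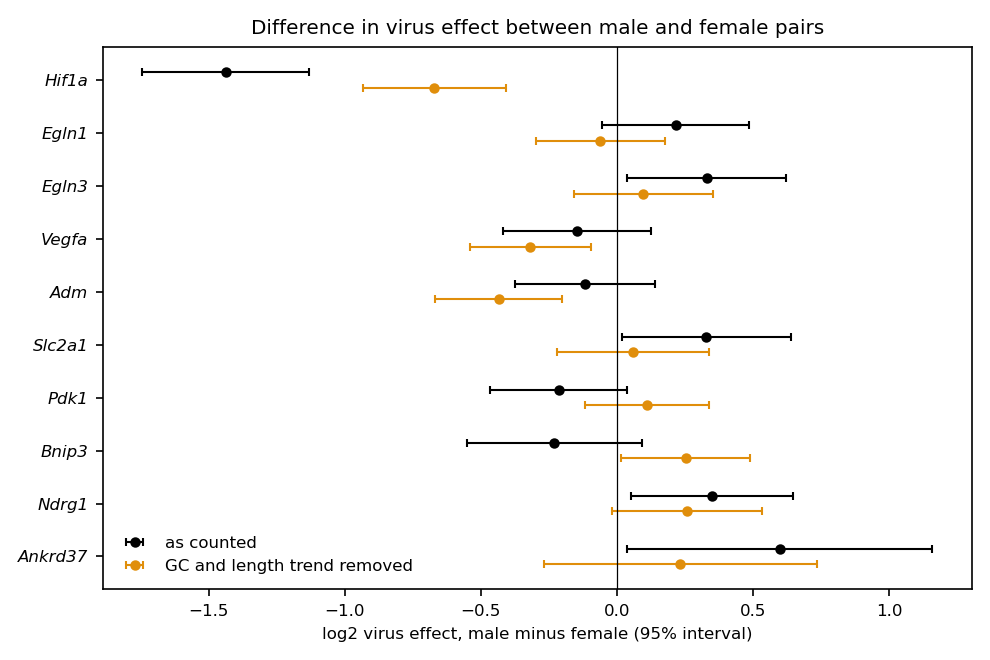
Difference in the log2 virus effect, male minus female, with 95% intervals from the edgeR fit with the replicate block, for the 10 genes as counted (black) and after removal of the trend with GC content and length (orange). Hif1a lies at -1.44 and -0.67, and the other members lie between -0.43 and 0.60.

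Both male pairs lay on one side of 0 and both female pairs on the other in 7 of the 10 genes, among 34.5% of all genes tested. Hif1a, Vegfa, Adm and Pdk1 were lower with the Has2 virus in both male pairs and higher in both female pairs. Egln1, Egln3 and Slc2a1 did the opposite. After Hif1a the widest of these differences were those of Slc2a1, with log2 pair ratios of -0.020, -0.36, 0.16 and 0.086 in replicates 1 to 4, and of Egln3, with -0.035, -0.17, 0.25 and 0.18. In the blocked interaction fit both stood at 0.33, male minus female, with edgeR adjusted p = 0.107 for Slc2a1 and 0.0892 for Egln3. Vegfa's pair ratios were 0.14, 0.062, -0.0058 and -0.12 in replicates 1 to 4 on the log2 scale, Adm's 0.041, 0.10, -0.087 and -0.037, and Egln1's -0.015, -0.19, 0.094 and 0.099. In the male pairs of the blocked fit Ndrg1 also passed the test (log2 fold change 0.33, SE 0.096; edgeR adjusted p = 0.0312; background 26.8%), yet its difference from the female pairs did not (adjusted p = 0.0791), nor did it pass in the male pairs with the trend removed (adjusted p = 0.185).

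A wider list of 61 genes of the hypoxia pathway, the 10 included, also held no call. Of these, 59 were tested; Hif3a had 0 to 11 counts per library, and Epo had 0 counts in all 8, which allows a level of up to 0.0639 CPM in the shallowest library. The edgeR test called 0 of the 59 for the virus (0 at an unadjusted p under 0.05; 0 by DESeq2), with 27 fold changes above 0, 32 below and a median of -0.012 (33 above and 26 below with RLE scaling, 22 and 37 with library totals). Among the 49 tested genes other than the members, 3 were higher in all 4 pairs (background 9.16%) and 4 were lower in all 4 (background 7.96%).

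Of the HIF subunits, 3 of 4 tested had a positive fold change. Epas1, the HIF-2 alpha subunit, averaged 176 ± 79.7 CPM with the Has2 virus and 147 ± 64.5 CPM with the GFP virus (SD, n = 4 each; log2 fold change 0.26, SE 0.36), and Arnt, the partner of both alpha subunits, 91.0 ± 19.7 CPM with the Has2 virus and 79.3 ± 6.90 CPM with the GFP virus (0.20, SE 0.16). Among 8 hydroxylases, VHL and co-regulators, 6 were above 0, or 4 once the trend with GC content and length was removed. The acetyltransferase Ep300, which HIF recruits, stood at a log2 fold change of 0.19 (SE 0.26) and Cited2, which competes with HIF for it, 0.085 (SE 0.13).

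Of 13 genes of glucose use, lactate and pH, 10 were below 0, with a median of -0.027; with RLE scaling 7 were below 0 (median -0.0090). The glycogen-branching enzyme Gbe1 stood at -0.24 (SE 0.19) and hexokinase 2 (Hk2) at -0.10 (SE 0.12). The 8 genes of vessel growth and tone were split 4 and 4 (2 above and 6 below with library totals, 5 and 3 with RLE scaling); Vegfc, the lymphatic growth factor, was at -0.12 (SE 0.12), or 0.055 once the trend with GC content and length was removed, and Angpt2, which loosens vessel walls, at -0.30 (SE 0.39). Of 9 genes of mitochondria and cell survival 5 were below 0 (median -0.11; 4 below and a median of 0.060 without the GC and length trend), among them the mitochondrial proteins Fam162a (-0.31, SE 0.19) and Higd1a (-0.16, SE 0.14). Fam162a was lower in all 4 pairs, with 181 ± 38.9 CPM with the Has2 virus and 225 ± 39.5 CPM with the GFP virus.

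Of 6 genes of chromatin and transcription feedback 4 were below 0. The histone demethylase Kdm3a was at -0.23 (SE 0.15) and the repressor Bhlhe40 at 0.15 (SE 0.12), and Bhlhe40 was higher in all 4 pairs. Genes of matrix modification and secretion, through which hypoxia can act on collagen, were split 4 above and 5 below 0 (median -0.012), against 7 above and 2 below without the GC and length trend (median 0.064); Stc2, a secreted glycoprotein, was at 0.11 (SE 0.16) and the collagen lysyl hydroxylase Plod1 at 0.080 (SE 0.15). Of the iron and heme genes, the transferrin receptor Tfrc showed a log2 fold change of -0.50 (SE 0.38) and heme oxygenase 1 (Hmox1) 0.10 (SE 0.37).

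Tfrc resembled Hif1a in being lower with the Has2 virus in both male pairs, but unlike Hif1a it was not higher in the female pairs. Its pair ratios on the log2 scale were -1.31 and -1.39 in the male and -0.075 and -0.011 in the female pairs, and its transcript has a GC content of 39.8%. Its difference between the sexes was -1.29 (SE 0.14; edgeR adjusted p = 0.00012) with the replicate block and -0.38 (SE 0.13; adjusted p = 0.0926) after removal of the trend with GC content and length. Over the wider list the blocked interaction fit called 17 of 59 genes, or 28.8%, beside 28.4% of all genes, 12 of them with a negative and 5 with a positive difference, and with the trend removed 5 of 59, or 8.47%, beside 10.4%. These shares were near the background.

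The genes whose profiles came nearest to single members were found among 10304 tested genes of at least 5 CPM, by the root mean square difference of centred log2 CPM over the 8 libraries. For Bnip3 they were Asb5 (0.082), Tmem251 (0.093) and Kcmf1 (0.096), and the nearest member was Pdk1 (0.131). For Ndrg1 they were Tmem151a (0.060), Arid5a (0.091) and Prnp (0.097), and the nearest member was Pdk1 at 0.260. For Egln3 they were Stk40 (0.064), Syk (0.073) and P2rx7 (0.084), and the nearest member was Vegfa (0.142). The median distance of all these genes was 0.285 from Bnip3, 0.352 from Ndrg1 and 0.380 from Egln3.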

How the data were processed

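The libraries were made with a stranded mRNA kit (labels' protocols), and the authors deposited them as raw counts per Ensembl gene in 1 table. Per the submitters' processing notes, FastQC 0.10.1, HTSeq 0.10.0 and the build GRCm39 were used; aligner and annotation release: not given in the sources used here. Symbols, transcript lengths and GC content came from GENCODE M21, of an older build, which matched 52081 identifiers and missed 3333; those held 0.405% to 0.871% of a library's counts. Promoters are RefSeq's.

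Counts were tested with edgeR 4.0.16 (R 4.3.3), TMM scaling, its default filter and a Benjamini-Hochberg adjusted p under 0.05 over all genes; DESeq2 1.42.0 was an alternative. SE is the log2 fold change over the root of F. The tests were tried on counts simulated from the fitted models. No trend of GC content or length was added, so this cannot show how such a trend affects the calls. The median SE was 0.23, or 0.14 with the block. Libraries of a group differed beyond sampling noise (chi-square divided by its degrees of freedom was 41.8 to 333). The floor of 3 counts covers counting error only. Same-numbered libraries share a preparation name, and what they deviate by from their group's mean correlated at 0.69, 0.60, 0.60 and 0.40 for replicates 1 to 4, so the numbers pair the libraries. Splines with 5 degrees of freedom each for GC content and log2 length were removed as an offset from each library, for the 99.8% of tested genes with a value.

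Members and lists were chosen with earlier results of these data known. Named are Has2, the 10 members, up to 2 other genes with the smallest p of each role group, and for the 3 members with the smallest p the 3 genes of nearest profile.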

Additional observations from a re-analysis of the deposited data

Results flagged for a closer look

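The difference in virus effect between the sexes passed the edgeR interaction test with the replicate block for Hif1a (-1.44), Tfrc (-1.29), Ep300 (-0.66), Gbe1 (-0.60) and Kdm3a (-0.41), each given as male minus female on the log2 scale. Has2 passed too (-1.64), but not with the trend of GC content and length removed (-0.85, edgeR adjusted p = 0.202). The other calls of the wider list in that fit were negative but for Pgk1 (0.67), Ldha (0.64), Angptl4 (0.61), Slc16a3 (0.52) and Egln2 (0.51), which were named after their values were seen. After removal of the trend with GC content and length it passed for Hif1a (-0.67), Adm (-0.43) and Ep300 (-0.43). In the same fits 28.4% and 10.4% of all genes passed. Without the block no gene passed in the edgeR fit.

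In 6 of 54 groups of 4 libraries, 1 library lay far from the other 3 beside the range of the group. Chance gives this in about 1 of 20 independent groups. These groups share the same paired libraries, so the 6 cannot be set against that rate. Adm stood at 139 CPM in Has2 replicate 1 (nearest other 100.1 CPM) and at 135 CPM in GFP replicate 1 (nearest other 99.0 CPM). Ankrd37 was at 1.86 CPM in GFP replicate 2 (nearest other 5.36 CPM). The other 3 were Epas1 at 243 CPM in GFP replicate 1, Plod1 at 232 CPM in GFP replicate 2 and Hmox1 at 851 CPM in GFP replicate 2. In Adm, Ankrd37, Epas1 and Hmox1 the library of the same number was also the most extreme of the other virus, on the same side.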

How the results depend on the processing

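The count of members called for the virus was 0 in 24 of 25 alternatives and 1 (Hif1a, lower) in male libraries alone, where the wider list had 3 calls. Over all genes the count of 1 became 7 with DESeq2, 61 with DESeq2 and the replicate block, 0 in female libraries alone (Has2 then at 9.12, adjusted p = 0.799) and 1415 in male libraries alone. The replicate block with edgeR left the count at 1 and changed no call of a member for the virus. The median of the members lay between -0.037 and 0.049 when libraries or numbers were left out (-0.037 without GFP replicate 2, 0.049 without Has2 replicate 2 and 0.045 without replicate 4), with a change of sign in 16 of 25 alternatives. Single log2 fold changes turned by more than their SE, or with a call, for Bnip3 (0.22 with the GC and length trend removed and 0.23 with the block as well), Vegfc (0.055 and 0.045), Ep300 (-0.18 in males alone) and, in females alone, Hif1a (0.41), Pdk1 (0.11) and Gbe1 (0.055).

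The interaction count of 0 became 4512 with the replicate block, 666 with DESeq2, 3602 with both, 1653 with the GC and length trend removed and the block, and 0 to 308 when libraries were left out without the block (5 without GFP replicate 2, 308 without replicate 1, where Hif1a passed at -1.67 with an edgeR adjusted p of 0.0444, and 231 without replicate 2). Chosen after seeing the data, the blocked fit gave 4341 with RLE scaling, 4130 with library totals, and 4768, 4915, 2240 and 2268 without replicates 1, 2, 3 and 4. The sex differences of Bnip3, Egln1 and Pdk1 turned with the trend removed (0.27, -0.069 and 0.11; with the block 0.25, -0.062 and 0.11). Without single libraries those of Egln3 ranged from -0.11 to 0.70 and those of Ankrd37 from -0.57 to 1.94. Bnip3, Slc2a1 and Ankrd37, not called in the blocked edgeR fit, passed for the sex difference in at least 1 of 28 alternatives. Why these values moved was not tested. Ankrd37, with as few as 50 counts, is the member limited most by depth.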

Other observations

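Outside the rule for named genes, and chosen after their values were seen, 3 other genes of the wider list had marked values by sex. The nuclear receptor Rora was at -1.13 in male and 0.44 in female pairs (log2 fold change, replicate block; edgeR adjusted p of the difference 5.2e-05, or 0.0218 after removal of the trend with GC content and length). Stc1, a secreted hormone, was at -0.51 and 0.73 in the same pairs (edgeR adjusted p of the difference 0.0115, and 0.202 with the trend removed). Ero1l, an oxidase of protein folding, differed by 0.43, male minus female, with the trend removed (edgeR adjusted p = 0.0223).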
